A study of Hordeum vulgare with 4 samples.

Results

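In leaves of the barley (Hordeum vulgare) cultivar Golden Promise, 296 of 63254 assembled genes were represented by 10 or more isoforms, that is, by 10 or more rows of the isoform table. The members were chosen by that row number alone, whatever their counts, and hold 3762 of the 92519 isoforms, or 4.07% of the rows in 0.468% of the genes. Leaf RNA of overexpressors, plants in which the barley heat shock transcription factor HvHSFA2e is constitutively expressed (2 RNA-seq libraries), was set against that of wild-type plants without the transgene (2 libraries). Both genotypes carry the same heat label, 42 °C for 30 minutes; the treatment protocol instead gives 2-week-old plants 4 hours at 40 °C, and the extraction protocol takes leaves of 5 weeks without speaking of heat, so what heat these leaves had is unclear and no library is labelled unheated. The sources used here name neither the promoter of the transgene nor the number of transgenic lines, nor whether the libraries of a genotype stem from separate plants, so p-values cover only the spread between libraries, which may be technical.

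Most plant genes are transcribed as precursors with introns, and the spliceosome can join the exons of one precursor in several ways. In plants a retained intron is the most frequent form of alternative splicing, and many transcripts with a retained intron or a shifted frame carry early stop codons and are degraded or kept in the nucleus. Heat is known to change splicing, and in Arabidopsis the heat shock factor gene HSFA2 itself yields a heat-induced splice variant. An assembled isoform can also stem from another start or end of transcription, from partly spliced RNA, from similar gene copies merged into 1 model, or from an assembly error, and the tables do not tell these apart. The identifiers are not paired with gene names in the files, and 0 of the 296 matched the RefSeq gene table of barley, so genes are described by their data and neither functions nor sequences are given. For the same reason neither the level of HvHSFA2e nor leaf markers were checked. In RNA from whole leaves, fewer cells of a type and less RNA per cell cannot be told apart.

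The libraries held 14488461 and 14128916 expected reads in the overexpressors, against 6030406 and 22631196 in the wild type. Reads were estimated per isoform with RSEM, which divides reads among similar isoforms, so an isoform's value is less certain than that of its gene, and near-identical gene copies or overlapping antisense genes could share reads as well. Levels in counts per 1e6 reads (CPM) are given on library sizes scaled by TMM, a factor that aligns the bulk of the genes between libraries.

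The row number of the members ran from 10 to 39 with a median of 12. It was 10 in 89 genes, 10 to 14 in 239 genes, and 20 or more in 16. The genes came from 296 different partitions of the assembly, 1 each. Their level per length, as the authors' TMM-scaled TPM (transcripts per 1e6) averaged over the 4 libraries, ran from 0.881 to 9658 with a median of 16.0 and quartiles of 7.23 and 48.3. The median over all 25095 genes tested was 7.65 on the same scale. All 296 genes had reads in both overexpressor libraries (at least 25.4 in each), while 2 had no read in wild-type replicate 1. The members took 5.81% and 5.83% of the reads in the overexpressor libraries, against 5.89% and 6.11% in the wild-type libraries. A single gene, TRINITY_GG_3639_c0_g1, took 1.73% and 1.75% of all reads in the overexpressor libraries and 2.23% and 2.38% in the wild type. Without it the members took 4.08% of the reads in each overexpressor library, against 3.66% and 3.72% in the wild type, so the order of the genotypes turned round.

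At the gene level more members rose than fell in the overexpressors. All 296 passed the filter on low counts. By edgeR's quasi-likelihood F test, 126 of them (42.6%) were higher than in the wild type, 38 (12.8%) were lower and 132 were not called (Benjamini-Hochberg adjustment over 25095 genes, threshold 0.05). Among all tested genes the calls were 18.6% upward and 16.1% downward. The members had a median log2 fold change (overexpressors over wild type) of 0.50, all tested genes one of 0.06. With plain library-size scaling these medians were 0.75 and 0.32, again 0.43 apart, and the calls were 158 upward and 28 downward among the members, against 25.2% and 10.3% of all tested genes. Among the called members the median log2 fold change was 1.16 for the higher genes and -1.07 for the lower ones. At least 2-fold, 74 members were higher and 23 lower, and at least 8-fold 14 were higher and 1 was lower. Over all genes tested, calls of at least 2-fold were 15.2% higher and 9.93% lower, and calls of at least 8-fold were 4.98% higher and 1.32% lower.

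**Figure D1:**
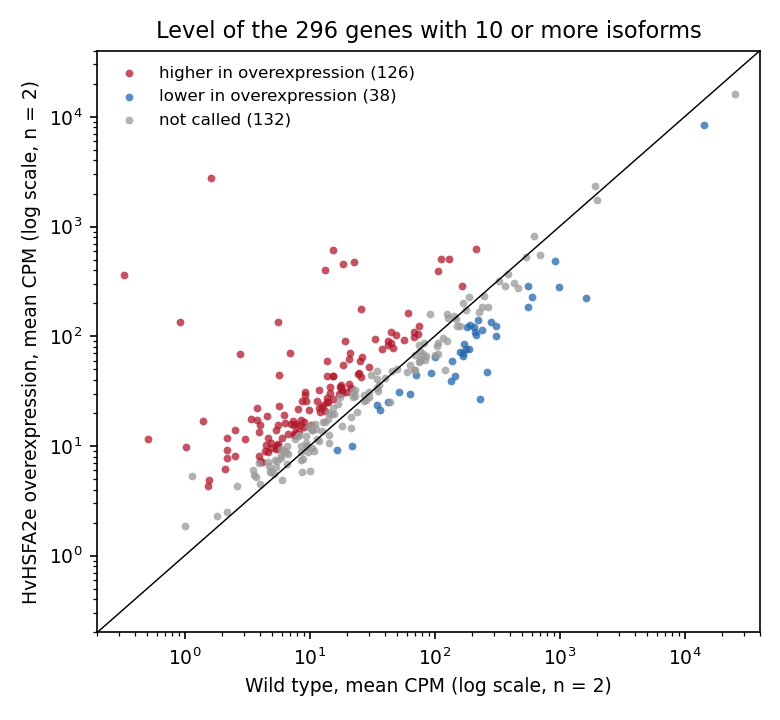
Mean level of each of the 296 genes in HvHSFA2e overexpressors (vertical axis) and wild-type leaves (horizontal axis), both in CPM on a log scale with 2 libraries per mean; the line marks equal levels. The 126 higher genes lie above the line, the 38 lower genes below it, and the 132 genes not called on both sides.

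Library by library the picture was similar. Both overexpressor libraries lay above both wild-type libraries in 177 members (59.8%) and below them in 75 (25.3%), and in 44 the genotypes overlapped. Over all genes tested those shares were 38.4% above and 33.6% below. With a single wild-type library fewer calls were made, among the members and over all tested genes alike. Without wild-type replicate 1 the median log2 fold change was 0.48 in the members and 0.10 over all tested genes. Without wild-type replicate 2 these medians were 0.52 and 0.15.

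The balance of calls differed with the level of the members. Between 4 and 16 CPM, averaged over the 4 libraries, 52 of 106 members were higher and 2 lower, where 20.3% of all genes of that level were higher and 14.6% lower. Between 16 and 64 CPM, 47 of 86 members were higher and 6 lower, against a background of 16.6% higher and 25.2% lower. At 64 CPM or more, 25 of 97 members were higher and 30 lower, against 15.6% and 35.6% of all genes of that level. In the middle range of member levels, between their quartiles of 10.4 and 87.2 CPM, 77 of 148 members were higher and 10 lower, against 17.0% and 24.2% of all tested genes there. Below 64 CPM higher members thus far outnumbered lower ones, and above it they did not. Set against all genes of 64 CPM or more, however, members of that level were more often higher and less often lower. Of the 7 members under 4 CPM, 2 were higher, against 19.2% of all genes of that level.

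Calls were also counted by the number of assembled isoforms, as a description with no test. The share called higher was 17.8% of the tested genes with 1 isoform row, 17.3% with 2 to 4, 26.9% with 5 to 9, 39.7% with 10 to 14 and 54.4% (31 of 57) with 15 or more. The share of lower genes was 15.5%, 18.0%, 12.7%, 13% and 12.3% in the same order. The level moved with the row number too: the median of mean CPM was 3.98, 9.83, 13.5, 19.6 and 66.3 in these classes. An assembler builds isoforms only from reads, so row number and read depth are not independent, and the part of depth in the share of higher genes was not tested. Just inside the rule, 34 of the 89 genes with 10 rows were higher and 7 lower. Just outside it, 39 of the 145 genes with 9 rows were higher and 26 lower.

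**Figure D2:**
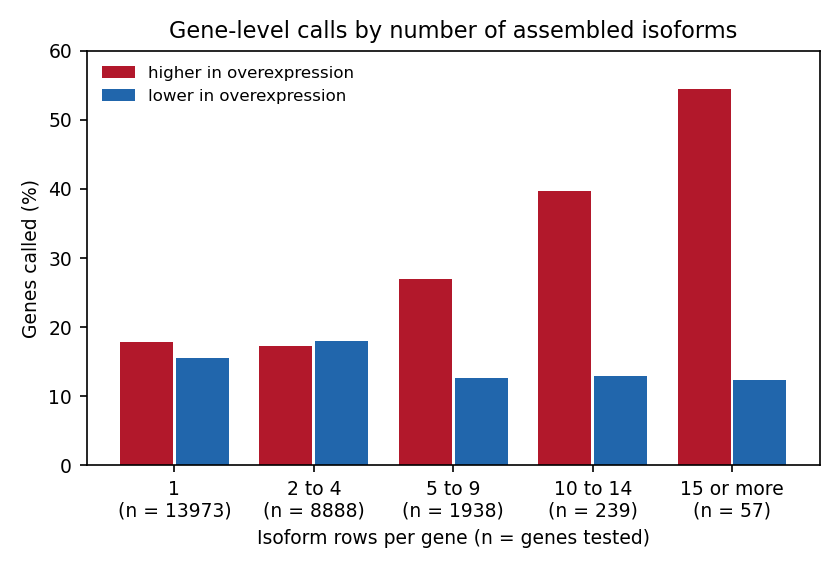
Percentage of tested genes called higher (left bar) or lower (right bar) in the overexpressors, by the number of isoform rows of the gene; n is the number of genes tested. Higher genes make up 17.8% of genes with 1 row and 54.4% of those with 15 or more, while lower genes stay between 12.3% and 18.0%.

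Among called members with at least 1 CPM in both genotypes, the largest increases were these. TRINITY_GG_14447_c0_g1, with 20 isoform rows, had 2172 and 3388 CPM in the overexpressor libraries, against 2.31 and 0.932 CPM in the wild type. The genotypes were far apart, with a log2 fold change of 11.03 ± 0.50 (SE; adjusted p = 6.34e-05 by edgeR), and the wild-type level rested on 13 and 19 reads. In the overexpressor libraries this gene was read as several isoforms at steady shares: isoform i94 took 43.6% and 44.8% of its reads, i69 took 19.8% and 19.5%, i37 took 19.3% and 19.0%, and i93 took 14.2% and 13.5%. Of these, i69 and i93 had 0 reads in both wild-type libraries, where all reads fell on i94 and i37. Such a count of 0 allows a share of up to 23.1% in wild-type replicate 1 and 15.8% in replicate 2 (3 reads of the total, counting error only). The overexpressor shares of i69 lie between these bounds and those of i93 below both.

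TRINITY_GG_7169_c0_g1, with 18 rows, had 484 and 730.4 CPM in the overexpressor libraries, against 14.9 and 16.0 CPM in the wild type, with no overlap and a log2 fold change of 5.29 ± 0.27 (SE; adjusted p = 8.43e-05 by edgeR). Its leading isoform i1 rose with the gene, to 352 and 541 CPM in the overexpressors, against 14.9 and 14.8 CPM in the wild type. That isoform took 72.7% and 74.0% of the reads in the overexpressors, against 100% and 92.0% in the wild type. Isoform i21 had 489 and 762 reads in the overexpressor libraries and 0 in both wild-type libraries. The wild-type gene level rested on 84 and 327 reads.

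The largest decreases were these. TRINITY_GG_32228_c0_g1, with 13 rows, had 26.1 and 28.0 CPM in the overexpressor libraries, against 222 and 239.6 CPM in the wild type (log2 fold change -3.09 ± 0.16, SE; adjusted p = 9.48e-05 by edgeR). Its leading isoform i23 held 75.6% and 77.6% of the reads in the overexpressors, against 71.0% and 61.2% in the wild type, so the gene fell while the same isoform led in all 4 libraries. TRINITY_GG_18386_c0_g1, with 12 rows, had 224 and 227 CPM in the overexpressors, against 1535 and 1709 CPM in the wild type (log2 fold change -2.85 ± 0.18, SE; adjusted p = 0.000157 by edgeR). Isoform i4 took 97.6% and 97.5% of its reads in the overexpressor libraries, against 96.3% and 94.2% in the wild type. This gene counts as one of many isoforms by the rule, yet nearly all of its reads lay on 1 of them.

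The genes with most rows follow. TRINITY_GG_32976_c0_g1, with 39 rows, had 326 and 309 CPM in the overexpressor libraries, against 309 and 349.6 CPM in the wild type, and was not called (log2 fold change -0.05 ± 0.16, SE; adjusted p = 0.817 by edgeR). TRINITY_GG_12584_c0_g1, with 35 rows, had 1629 and 1859 CPM in the overexpressors and 1863 and 2136 CPM in the wild type, and was not called either (edgeR adjusted p = 0.450). The next gene, with 26 rows, rose to 57.5 and 52.0 CPM in the overexpressors, against 17.4 and 19.4 CPM in the wild type (log2 fold change 1.56 ± 0.17, SE; adjusted p = 0.00113 by edgeR). In that gene isoform i4 had 0 reads in both overexpressor libraries and 27 and 56 in the wild type, while i42 had 66 and 160 reads in the overexpressors and 0 in both wild-type libraries. By reads the leading member was TRINITY_GG_3639_c0_g1, with 11 rows, at 15194 and 16786 CPM in the overexpressors, against 23967 and 26476 CPM in the wild type. That difference missed the threshold (log2 fold change -0.66 ± 0.23, SE; adjusted p = 0.0675 by edgeR). The highest level per length was in a gene with 14 rows, which fell to 8130 and 7621 TMM-scaled TPM in the overexpressors, against 11588 and 11291 in the wild type (log2 fold change of its reads -0.77 ± 0.22, SE; adjusted p = 0.0309 by edgeR). While that gene fell, its isoform i31 rose, with 8.59% and 8.81% of the reads in the overexpressors, against 0.965% and 0.687% in the wild type (log2 fold change 2.67 ± 0.21, SE; adjusted p = 0.0110 by edgeR). TRINITY_GG_23037_c0_g1, with 15 rows, had 1940 and 2709 CPM in the overexpressor libraries and 1864 and 1959 CPM in the wild type, so the genotypes overlapped and the gene was not called (edgeR adjusted p = 0.351).

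Few members were near zero in the wild type. Only 2 averaged under 0.5 CPM there, and 0 of the 296 combined 0 reads in both wild-type libraries with at least 1 CPM in both overexpressor libraries. No share over all genes is given beside these counts. The members lay at a higher level, with a median of mean CPM of 26.1, against 6.57 over all tested genes. Of the 200 genes with the highest wild-type CPM, 10 were members.

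Isoforms were next counted as read or not read. Of the 3762 isoforms, 2960 and 2870 had at least 1 read in the overexpressor libraries, against 1938 and 2690 in the wild-type libraries. That is 78.7% and 76.3% of the members' isoforms in the overexpressors, against 51.5% and 71.5% in the wild type; over all 92519 isoforms it was 76.9% and 73.6%, against 54.0% and 72.9%. With all libraries thinned to the total of the smallest, the numbers were 2850 and 2758 in the overexpressors and 1938 and 2451 in the wild type, or 75.8% and 73.3% against 51.5% and 65.2%. The thinning drew from counts that RSEM had already divided at full depth, so it does not show how fewer reads would be divided. Over all isoforms the thinned shares were 67.7% and 64.6% in the overexpressors and 54.0% and 58.7% in the wild type, so the order of the genotypes was the same in the series as a whole. Among the members' isoforms, thinned or not, the gap between the wild-type libraries was larger than that from wild-type replicate 2 to either overexpressor library. Both overexpressor libraries read 390 isoforms, of 176 genes, that neither wild-type library read, 10.4% of the members' isoforms where all isoforms gave 8.01%. The converse group, read in both wild-type libraries and in neither overexpressor library, held 82 isoforms of 58 genes, or 2.18% where all isoforms gave 2.17%. After thinning these groups held 440 isoforms (11.7%, all isoforms 7.25%) and 86 isoforms (2.29%, all isoforms 2.29%). At a mean of at least 1 CPM there were 229 isoforms in the first group (6.09%, all isoforms 1.60%) and 54 in the second (1.44%, all isoforms 0.449%). The excess of isoforms read in the overexpressors alone was thus seen over all isoforms too, and whether it is larger in the members was not tested. In all 4 libraries 1317 isoforms were read, and 164 had no read that rounds to 1 in any library, although they stand in the table.

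How a gene's reads were spread over its isoforms was measured as the effective number of isoforms, the exponential of the Shannon entropy of their shares. It is 1 when 1 isoform takes all reads and equals the row number when all take the same. It was computed for the 204 members with at least 50 reads in every library, which keeps all 38 lower but only 67 of the 126 higher members. The median was 4.94 and 4.74 in the overexpressor libraries, against 3.88 and 4.54 in the wild type. Both overexpressor libraries lay above both wild-type libraries, but the gap between the wild-type libraries was larger than the gap from wild-type replicate 2 to either overexpressor library. With 2 against 2 libraries the smallest p of an exact two-sided permutation test is 0.333, so no test is given. The leading isoform took a median of 41.6% and 43.4% of a gene's reads in the overexpressors, against 49.7% and 45.7% in the wild type. The leading 3 isoforms together took 78.4% and 78.7% in the overexpressors and 85.0% and 79.9% in the wild type, so most rows of a gene shared the remaining reads.

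The same comparison was made gene by gene. The effective number of both overexpressor libraries lay above both wild-type values in 89 members (43.6%) and below both in 35 (17.2%). Over all 5618 genes with 2 or more isoforms and 50 reads in every library, 34.9% lay above and 18.9% below. Among the 1057 of these with 5 to 9 rows, 42.1% lay above and 17.2% below, close to the shares of the members. A gene with more reads can show more isoforms, so each gene was also thinned to its total in its smallest library. The reads were drawn from expected counts that RSEM had already divided among isoforms at full depth. How RSEM would divide fewer reads was not tested. After this thinning 80 members lay above and 39 below, against 31.8% and 17.1% of all 5618 genes. The medians were 4.85 and 4.62 in the overexpressor libraries and 3.88 and 4.53 in the wild type. The counts were also split by gene-level call, and the difference between the splits was not tested. Of the 67 higher members measured, 36 lay above and 7 below in effective number, while of the 38 lower members 9 lay above and 14 below. Among all higher genes 45.7% lay above and 13.4% below, and among all lower genes 29.7% and 22.4%. After each gene was thinned the members' numbers were 32 and 10, and 8 and 13, against 40.9% and 12.2% of all higher genes and 27.4% and 20% of all lower genes. Without wild-type replicate 1, 99 of the 204 members lay above and 73 below, against 43.4% and 34.0% of all 5618 genes. The difference of the medians (overexpressors minus wild type) was then 0.305 in place of 0.635. Without wild-type replicate 2 the members' counts were 135 and 44, against 50.4% and 29.1% of all 5618 genes, and the difference was 0.965.

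**Figure D3:**
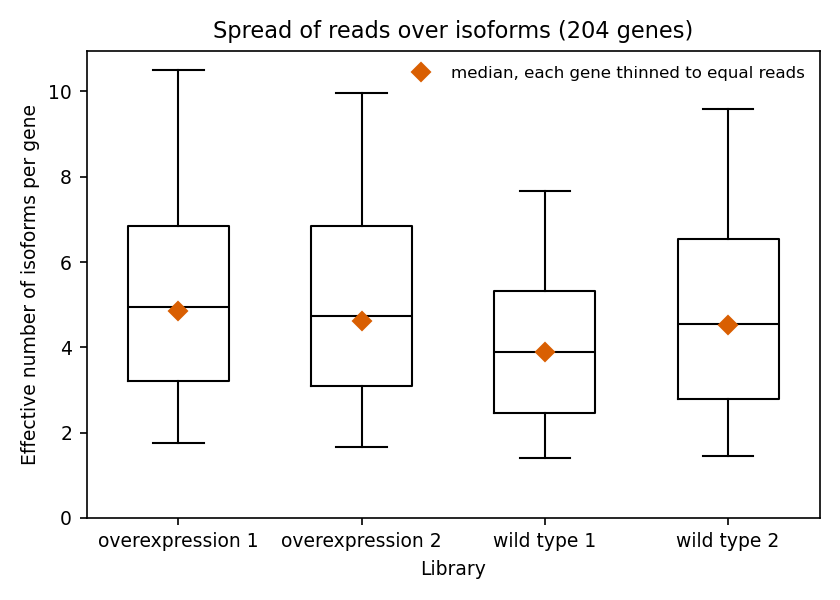
Effective number of isoforms per gene in each library for the 204 members with 50 reads in every library. Boxes give quartiles and the median, whiskers the 5th and 95th percentiles, and diamonds the median after each gene was thinned to equal reads (4.85, 4.62, 3.88 and 4.53); wild-type replicate 1 stands lowest.

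Isoforms were then tested one by one. Of the 3762 isoforms 2289 passed the filter. In the overexpressors 277 of these (12.1%) rose and 108 (4.72%) fell by edgeR at an adjusted p under 0.05 over 38337 isoforms, against a background of 7.01% and 5.57% of all isoforms. The calls fell in 161 members, of which 76 had a single called isoform, and at most 14 isoforms of 1 gene were called. They mostly followed the gene: 214 of the 277 higher isoforms belonged to higher members and 70 of the 108 lower isoforms to lower members. A gene's reads are the sum of its isoforms' reads, so the calls of isoform and gene are not independent. The same share over all isoforms is not given. In members not called as genes, 57 isoforms were higher and 34 lower. With any library left out there were fewer calls, among the members' isoforms and over all isoforms alike. With a replicate block, 60 of the members' isoforms were higher (2.62%) and 19 lower (0.830%), against 1.53% and 0.905% of all isoforms tested.

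Isoforms of the same gene moved in opposite directions, with a call each, in 22 members, which is 7.53% of the 292 members with 2 or more isoforms tested, against 0.934% of all such genes. A gene with more isoforms tested has more chances of such a pair. Of the 22, 13 were not called as genes, 4 were higher and 5 lower.

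Isoform usage asks whether the isoforms of a gene changed unequally. The F test of edgeR diffSpliceDGE, adjusted over 6849 genes, called 56 of the 292 members with enough isoforms, or 19.2%, against 8.72% of all genes. For genes with 5 to 9 rows the share was 10.9% and for those with 2 to 4 rows it was 7.33%. Of the 56 members, 25 were higher as genes, 11 lower and 20 not called. Among all 296 members these numbers were 126, 38 and 132, and the split of all genes called for usage is not given. With any library left out fewer members were called for usage, and fewer of all genes as well. With a replicate block 3 of the 292 members were called (1.03%), against 0.131% of all genes. By the Simes test of the same fit 26 members were called (8.90%), against 2.29% of all genes.

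The replicate error of the isoform shares was read from the libraries themselves. The distance between 2 libraries was taken as the percentage of a gene's reads that would have to move to another isoform to make the shares equal. Its median over the 204 members was 15.7% between the overexpressor libraries and 21.9% between the wild-type libraries. Between genotypes the 4 pairs of libraries gave medians of 29.2% to 31.5%. In 78 members (38.2%) the smallest distance between genotypes exceeded the larger one within a genotype, as it did in 24.6% of all 5618 genes. Among those with 5 to 9 rows it did so in 31.5%. It did so in 25 of the 49 members with 15 or more rows (51.0%). Of the 56 members called for usage 48 had 50 reads in every library, and 42 of these 48 were so separated. In the 48 the median distance was 29.5% between genotypes and 11.6% within them. Usage calls and distances come from the same reads of the same libraries, so their overlap is no independent support. The share of separated genes among all genes called for usage is not given.

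**Figure D4:**
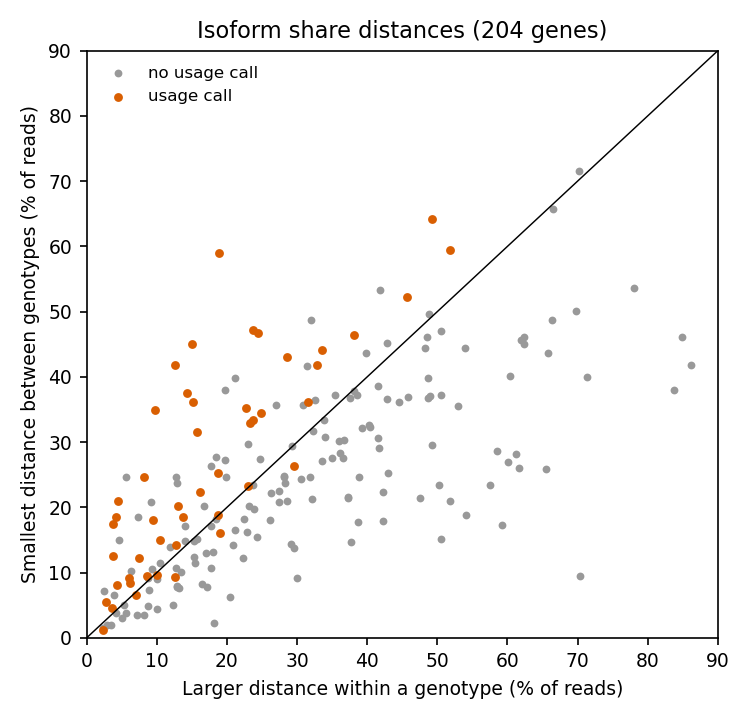
Smallest isoform share distance between genotypes (vertical axis) against the larger distance within a genotype (horizontal axis), in percent of the gene's reads, for 204 members; the line marks equality. The 78 genes above the line differ more between genotypes than between replicates, and 42 of the 48 members with a usage call lie there. Calls and distances come from the same reads.

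The 3 smallest p-values of the usage test were in genes not called at the gene level, and these 3 are also the members called under the replicate block. In TRINITY_GG_12584_c0_g1, with 25 of its 35 isoforms tested, the leading isoform i127 took 34.0% and 31.6% of the reads in the overexpressors, against 57.7% and 51.7% in the wild type. Isoform i107 took 14.3% and 17.9% in the overexpressor libraries, against 24.5% and 30.4% in the wild type. Other isoforms were read mainly in the overexpressors: i95 had 1508 and 1883 reads in the overexpressor libraries and 0 and 87 in the wild type, and i20 had 1819 and 1760 against 0 and 147. The effective number was 9.81 and 9.87 in the overexpressors, against 3.61 and 4.00 in the wild type, at gene levels that were not called different. The distance was 35.0% to 36.9% between genotypes and at most 9.78% within them (edgeR diffSpliceDGE adjusted p = 2.37e-11). Without isoforms under 10% of the gene's reads the call was lost (adjusted p = 0.960 in the same test). Over the other alternatives the adjusted p was 3.84e-12 to 0.00488.

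TRINITY_GG_3639_c0_g1, the member with most reads, kept its main isoform. Isoform i12 took 89.7% and 88.0% of the reads in the overexpressors, against 90.7% and 91.0% in the wild type, and i7 took 8.09% and 9.69% against 8.27% and 7.67%. The usage call (edgeR diffSpliceDGE adjusted p = 1.33e-06) came with small isoforms that had few or no wild-type reads. Isoform i2 had 1233 and 2992 reads in the overexpressors, or 0.491% and 1.21% of the gene, against 0 and 9 reads in the wild type. Isoform i14 had 184 and 281 reads in the overexpressor libraries and 1 in each wild-type library. The shares of the whole gene did not separate: 1 of the distances between genotypes was 1.26%, while the overexpressor libraries differed by 2.40%.

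In TRINITY_GG_28089_c0_g1, with 12 rows, the gene level was close in all libraries, at 53.2 and 48.3 CPM in the overexpressors and 50.4 and 49.9 CPM in the wild type (edgeR adjusted p = 0.943), while its isoform shares differed. Isoform i8 took 2.38% and 3.72% of the reads in the overexpressors, against 38.1% and 33.8% in the wild type, and fell (log2 fold change -3.53 ± 0.28, SE; adjusted p = 0.0111 by edgeR). Isoform i30 took 8.64% and 17.5% of the reads in the overexpressors and had 0 reads in both wild-type libraries. Isoforms i44 and i5 led in the overexpressors, i44 with 35.4% and 32.1% of the reads there, against 24.4% and 26.6% in the wild type, and i5 with 33.6% and 27.3%, against 18.7% and 11.7%. The effective number, 5.12 and 5.97 in the overexpressors and 5.35 and 5.71 in the wild type, overlapped between the genotypes. The distance was 45.1% to 49.5% between genotypes and at most 15% within them (edgeR diffSpliceDGE adjusted p = 1.58e-05, and 2.21e-05 to 0.0220 over the 10 alternatives).

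The other members among the 6 smallest usage p-values were also called as genes. In a gene with 10 rows that rose to 402 and 605 CPM in the overexpressors, against 106 and 119 CPM in the wild type, the leading isoform took 78.1% and 76.7% of the reads in the overexpressors, against 100% and 99.0% in the wild type (edgeR diffSpliceDGE adjusted p = 0.000135). In a gene with 16 rows that fell to 111 and 108 CPM, against 214 and 210.1 CPM in the wild type, the leading isoform took 82.6% and 82.3% of the reads in the overexpressors, against 94.1% and 93.6% in the wild type (adjusted p = 0.000177 in the same test). In both genes the leading isoform held a smaller share in the overexpressors, although 1 gene rose and the other fell. A gene with 18 rows fell to 63.0 and 80.7 CPM in the overexpressors, against 144 and 175 CPM in the wild type, and changed its leading isoform: i2 took 54.8% and 43.9% of its reads in the overexpressors, against 12.5% and 17.4% in the wild type, and i47 took 22.5% and 27.1%, against 48.7% and 44.5% (edgeR diffSpliceDGE adjusted p = 0.000391). The usage call was lost in 5 of 9 alternatives for the gene with 10 rows and in 5 of 9 for that with 16 rows. For the gene with 18 rows it was lost in 3 of 10. Under the replicate block the adjusted p was 0.0557 in each of these 3 genes (edgeR diffSpliceDGE).

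The leading isoform was compared between libraries as well. In 107 of the 204 members (52.5%) the same isoform led in all 4 libraries, which held for 91.5% of all 5618 genes. In 16 members (7.84%) 1 isoform led in both overexpressor libraries and another in both wild-type libraries, against 1.67% of all genes. In the remaining 81 the leading isoform differed within a genotype: it was the same in both overexpressor libraries in 153 of the 204 members and in both wild-type libraries in 144. Of the 16 switching members 8 were called in the usage test, and the same share over all switching genes is not given. The background differs from the members: 4357 of the 5618 genes have only 2 to 4 rows. In these the leading isoform took a median of 94.4% and 94.7% in the overexpressors, against 96.2% and 95.4% in the wild type. In the members it took 41.6% to 49.7%. A leading isoform with a smaller share is more easily replaced by another, and the part of this was not tested.

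Among the 4 switching members with the largest distance between genotypes, TRINITY_GG_10976_c0_g1, with 10 rows, had 17.8 and 15.4 CPM in the overexpressors and 14.4 and 12.5 CPM in the wild type and was not called as a gene (edgeR adjusted p = 0.251). Isoform i2 took 41.4% and 42.7% of its reads in the overexpressors, against 11.9% and 5.67% in the wild type, and rose (log2 fold change 2.66 ± 0.55, SE; adjusted p = 0.0492 by edgeR). Isoform i15 took 13.4% and 22.5% in the overexpressors, against 47.5% and 47.3% in the wild type. Isoform i7 had 0 reads in both overexpressor libraries and 17 and 54 reads in the wild type. The smallest distance between genotypes was 59.0% and the larger one within a genotype 18.9%. The usage call (edgeR diffSpliceDGE adjusted p = 0.0322) held in 2 of 10 alternatives, with a range of 0.0153 to 0.307.

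TRINITY_GG_18958_c0_g1, with 11 rows, had 19.4 and 20.7 CPM in the overexpressors and 14.8 and 13.6 CPM in the wild type and was not called as a gene either (edgeR adjusted p = 0.0695). Isoform i3 took 38.3% and 46.7% of the reads in the overexpressors, against 0% and 21.7% in the wild type. Isoform i22 took 25.6% and 22.7% in the overexpressors, against 73.4% and 66.2% in the wild type. The effective number was 5.54 and 5.01 in the overexpressors, against 1.78 and 2.49 in the wild type. The 0% in wild-type replicate 1 rests on 83 reads of this gene, which allows a share of up to 3.61%. The usage call (edgeR diffSpliceDGE adjusted p = 0.0378) held in 3 of 10 alternatives, with a range of 0.00867 to 0.407.

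The remaining 2 of these 4 switching members were higher as genes. In a gene with 12 rows isoform i14 took 63.6% and 64% of the reads in the overexpressors, against 0% and 4.40% in the wild type, while i9 took 23.7% and 12.9% against 56.2% and 47.3%. Its wild-type libraries held 54 and 210 reads and differed from each other by 49.2%, against 64.2% to 86.3% between genotypes. In a gene with 16 rows isoform i30 took 35.4% and 39.5% in the overexpressors, against 10.1% and 24.1% in the wild type, and i10 took 3.88% and 10% against 37.2% and 37.1%. The usage call of the gene with 12 rows (edgeR diffSpliceDGE adjusted p = 0.0316) was lost in 5 of 10 alternatives, with values up to 0.292, and that of the gene with 16 rows (adjusted p = 0.0295 in the same test) in 7 of 10, with values up to 0.262.

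**Figure D5:**
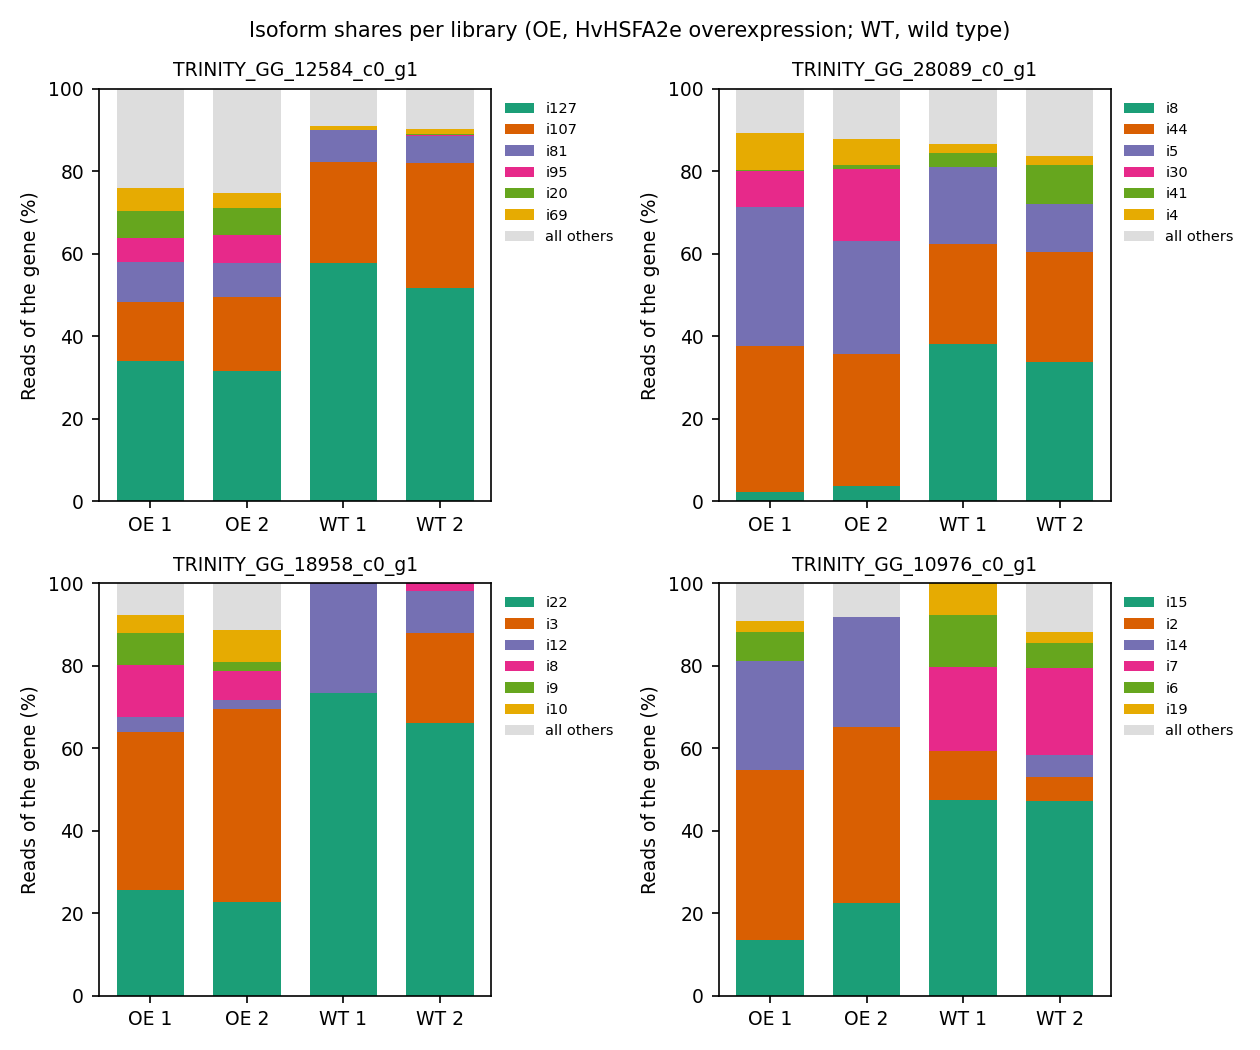
Percentage of a gene's reads on its isoforms in each library (OE, overexpressors; WT, wild type) for 4 members not called at the gene level; the 6 isoforms with the highest share in any library are coloured and the rest are grey. In TRINITY_GG_12584_c0_g1 the leading isoform i127 takes 34.0% and 31.6% in the overexpressors and 57.7% and 51.7% in the wild type, and the other 3 genes lead with another isoform in each genotype.

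The isoforms of a member differed in length. The quotient of an isoform's reads and its TPM is proportional to its effective length, the number of positions a fragment can start from, and it was used as a relative length within genes only. It was obtained for 3018 isoforms with at least 10 reads in a library. Over the 443 isoforms with 20 reads in every library its coefficient of variation between libraries had a median of 0.996%. The longest measured isoform of a member was a median of 3.40 times as long as the shortest. The leading isoform was a median of 75.7% as long as the longest one. The longest isoform led in 9 and 8 of the 204 members in the overexpressor libraries and in 7 and 10 in the wild type. The leading isoform was thus mostly not the longest. With many isoforms per gene this is likely from their number alone, and no share for other genes is given.

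Between genotypes, lengths shifted both ways. The mean isoform length of a gene, weighted by reads, was longer in both overexpressor libraries than in both wild-type libraries in 53 members (26.0%) and shorter in 65 (31.9%). Over all such genes 27.7% were longer and 22.0% shorter. The median log2 ratio of overexpressors to wild type was -0.003, and 172 of the 204 members stayed within 10% of equal length. The ratio ran from 0.778 to 1.48, the largest shifts of single genes toward shorter and toward longer isoforms.

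Trinity assembles aligned reads in partitions of overlapping reads, and other genes of a member's partition were looked at last. In 216 of the 296 partitions there was at least 1 further gene, 653 in all, few of which passed the filter. Of the 40 tested genes beside higher members 22 were higher and 0 lower, and of the 15 beside lower members 7 were lower and 0 higher, in the edgeR test. Beside members that were not called, 10 of 51 were higher and 4 lower. Over all genes tested 18.6% were higher and 16.1% lower. Such genes may be pieces of the member's own locus or separate neighbours, and which of these they are was not tested.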

How the data were processed

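RNA sequencing of leaves gave 2 libraries of HvHSFA2e overexpressors and 2 of wild-type plants. Per the submitters' processing notes STAR, Bowtie2, RSEM and DESeq2 were used; versions and roles are not given. Row names have the form of Trinity's genome-guided mode, per the file headers, and no source used here gives its settings or the genome build. The deposited values of isoforms are expected counts from the authors' use of RSEM and need not be whole. The deposited expression tables hold a signal, TMM-scaled TPM according to their names. Values of the deposited gene count table follow TPM and not reads, so expected counts of isoforms were summed per gene in its place.

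Counts were rounded, filtered with edgeR 4.0.16 filterByExpr (minimum count 10, minimum total 15), TMM-scaled and put through edgeR's quasi-likelihood F test in R 4.3.3, genotype being the only term; usage was tested with diffSpliceDGE. Benjamini-Hochberg adjustment ran over whole tables and calls were made at 0.05. Standard errors are the log2 fold change over the root of its F value. Alternatives were DESeq2 1.42.0, limma 3.58.1 on log2 expression plus 1 or 0.1, other scalings and filters, a replicate block, thinning and leaving out each library. The fits were tested on simulated data. Members singled out are the 3 with most rows, the 3 with the highest mean CPM, the 2 largest increases and 2 largest decreases among called members with at least 1 CPM in both genotypes, the 6 smallest usage p-values, and the 4 switching members with the largest between-genotype distance. Members, lists and rules were chosen with earlier results of these data known. No more than 2 identifiers of genes called in a direction are printed.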

Additional observations from a re-analysis of the deposited data

How the results depend on the processing

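The 4 genes named for the largest changes kept their direction and call in all 13 alternatives, with adjusted p-values up to 0.0136. The higher members stayed within 1.5 times their number in 11 of 15 alternatives and the lower members in 12 of 15. With a library left out, higher members numbered 53 to 111 and lower ones 17 to 48, higher isoforms 26 to 131 and lower isoforms 2 to 75, usage calls 7 to 26, separated members 116 to 163, members with a higher effective number 99 to 135 and with a lower one 44 to 73. The distance and effective number counts then compare fewer pairs of libraries, which makes them larger. Of all genes measured, 45.8% to 55.5% were then separated, 43.4% to 50.4% had a higher and 26.3% to 34.0% a lower effective number. The median log2 fold change was then 0.47 to 0.52 in the members and 0.02 to 0.15 over all genes tested. The shares of all genes and isoforms called were also smaller in each of these fits than with all libraries. Each such fit has 1 residual degree of freedom and takes the spread of the lone library from the other genotype. A rule of 8 or more rows gave 230 higher and 84 lower members and 97 usage calls. Of 423 genes then measured, 149 were separated, 184 had a higher and 63 a lower effective number. A rule of 15 or more rows gave 31 higher and 7 lower of 57 members and 22 usage calls. Of 49 then measured, 25 were separated, 23 had a higher and 9 a lower effective number. The difference of the median leading share was there -1.26 percentage points (overexpressors minus wild type). Both rules change the genes counted. With all libraries, 18.6% of all genes tested were higher, 16.1% lower and 8.72% called for usage. Of all genes measured with all libraries, 24.6% were separated, 34.9% had a higher and 18.9% a lower effective number. Without a filter 454 member isoforms were higher (12.6%) and 184 lower (5.11%), against 4.54% and 2.90% of all isoforms tested. Limma on log2 expression plus 1 gave 436 higher member isoforms (19.0%), against 13.8% of all. DESeq2 gave 177 lower ones (7.73%), against 8.42% of all. The cause of these differences was not tested. Usage calls numbered 26 by the Simes test (8.90%), against 2.29% of all genes. They numbered 20 (8.10%, all genes 4.94%) when isoforms below a share of 10% were dropped, which tests fewer isoforms. At least 200 reads in every library left 106 members, of which 47 (44.3%) were separated, 48 had a higher and 25 a lower effective number. Over all genes with as many reads the shares were 29.9%, 36.4% and 23.6% in the same order. The difference of the median effective number of the members (overexpressors minus wild type) was then 0.305, against 0.635 as reported. A mean of 50 reads with at least 1 read in every library, chosen after seeing the data as was the thinning of each gene, kept 289 members. Of these 144 had a higher and 39 a lower effective number, against 34.4% and 16.4% of all such genes. The difference of the median effective number was then 1.07. With a library left out that difference was 0.305 to 0.965, lowest without wild-type replicate 1. Deviations of same-numbered libraries from their genotype means had a correlation of 0.00239 over genes. It rests on 2 libraries per genotype, so whether the number pairs the libraries is not settled by it. The replicate block gave 126 upward and 42 downward member calls, against 18.1% and 16.2% of all tested genes. It gave 60 and 19 isoform calls and 3 usage calls. The test on the deposited gene count table was not run, because that table is proportional to the expression table used with limma. Wild-type replicate 1, with 6030406 reads, limits the precision of isoform shares.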
